A study of Arabidopsis thaliana with 3 samples.

Results

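The 5 genes described here are regulators of the floral meristem in Arabidopsis thaliana: LEAFY (LFY), UNUSUAL FLORAL ORGANS (UFO), LATE MERISTEM IDENTITY1 (LMI1) and the paralogues BLADE ON PETIOLE1 and 2 (BOP1 and BOP2). They were taken by locus identifier from the 32678 loci of the count tables, by a rule that used no measured value, though with earlier results of these data known. The tables hold 3 libraries of 1 group, inflorescence meristems of the wild-type accession Col-0, untreated, with no mutant or other control. Each library pooled 10 inflorescences from plants that had spent 4 weeks under 8 h of light and then 2 weeks under 16 h, with the older buds dissected off so that primordia up to the stage labelled P5 could remain. Since a pool mixes meristem and primordia, a lower level can come from fewer expressing cells or from less RNA per cell, and these cannot be told apart here.

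LFY is a plant-specific transcription factor that turns a new lateral primordium into a flower, in part by switching on AP1. UFO is an F-box protein, the substrate-binding part of an SCF ubiquitin ligase, and works with LFY to activate the petal and stamen gene AP3. LMI1 is a homeodomain-leucine zipper factor that LFY activates directly and that acts with LFY on CAL. BOP1 and BOP2 are BTB-ankyrin proteins of the NPR family that bind no DNA themselves, work through TGA bZIP factors at organ boundaries and promote floral meristem fate redundantly.

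The libraries held between 27236559 and 29078107 counts on nuclear genes, and levels are given as CPM, the count of a gene scaled by that total, with 1 CPM equal to 27.2 to 29.1 counts. Of 5 shoot meristem markers, 4 reached 1 CPM in every library, as 63.2% of 26712 nuclear protein-coding genes did. STM stood at 113 ± 14.1 CPM (SD, n = 3), and the stem cell marker CLV3 had 20, 26 and 30 counts. Of 5 root markers 0 reached 1 CPM in every library, and RHD6, EXPA7 and COBL9 were listed at 0. Markers of the anther tapetum stood apart in replicate 1, where 8 of them summed to 114 CPM, against 1.11 and 0.367 CPM in replicates 2 and 3, while MS1 and CYP703A2 were listed at 0 throughout; neighbouring levels of the regulators are therefore also given without that library. The phloem marker SUC2 was at 17.7, 24.8 and 10.8 CPM and FT was listed at 0. No label states that the plants of each pool were raised or dissected separately. The p-values therefore reach no further than these 3 pools, whose spread may be technical alone.

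All 5 regulators were detected in every library, at levels that spanned more than an order of magnitude. Each reached 1 CPM in each library, as 63.2% of 26712 nuclear protein-coding genes did. Counting intervals below are exact Poisson intervals at 95% and cover counting error only.

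LFY (AT5G61850, chromosome 5, 24844248 to 24846989, TAIR10.1, plus strand, 3 exons) was the highest of the set. It had 2238, 2388 and 2904 counts in replicates 1, 2 and 3, or 77.0, 82.5 and 107 CPM, with a mean of 88.7 ± 15.8 CPM (SD, n = 3). Replicate 3 was the high one, and its counting interval of 103 to 111 CPM did not overlap that of replicate 2, 79.3 to 85.9 CPM.

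UFO (AT1G30950, chromosome 1, 11035992 to 11037508, plus strand, 1 exon) had 420, 436 and 531 counts, or 14.4, 15.1 and 19.5 CPM, with a mean of 16.3 ± 2.75 CPM. As for LFY, replicate 3 was high and the other libraries were close to each other.

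LMI1 (AT5G03790, listed as HB51 in the reference, chromosome 5, 1004782 to 1006631, plus strand, 3 exons) had 137, 144 and 119 counts, or 4.71, 4.98 and 4.37 CPM. Its mean was 4.69 ± 0.305 CPM, and the counting intervals of the 3 libraries overlapped.

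BOP1 (AT3G57130, chromosome 3, 21147558 to 21150238, plus strand, 2 exons) was the lowest, with 100, 92 and 73 counts, or 3.44, 3.18 and 2.68 CPM and a mean of 3.10 ± 0.386 CPM. BOP2 (AT2G41370, chromosome 2, 17237727 to 17240609, minus strand, 2 exons) had 1080, 1065 and 1166 counts, or 37.1, 36.8 and 42.8 CPM, with a mean of 38.9 ± 3.37 CPM. BOP1 was lowest and BOP2 highest in replicate 3. Of the 5 regulators 3 thus had their highest CPM in replicate 3, 1 in replicate 2 and 1 in replicate 1, where 22.9%, 43.8% and 33.2% of the 18334 nuclear genes kept by the expression filter had theirs.

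**Figure D1:**
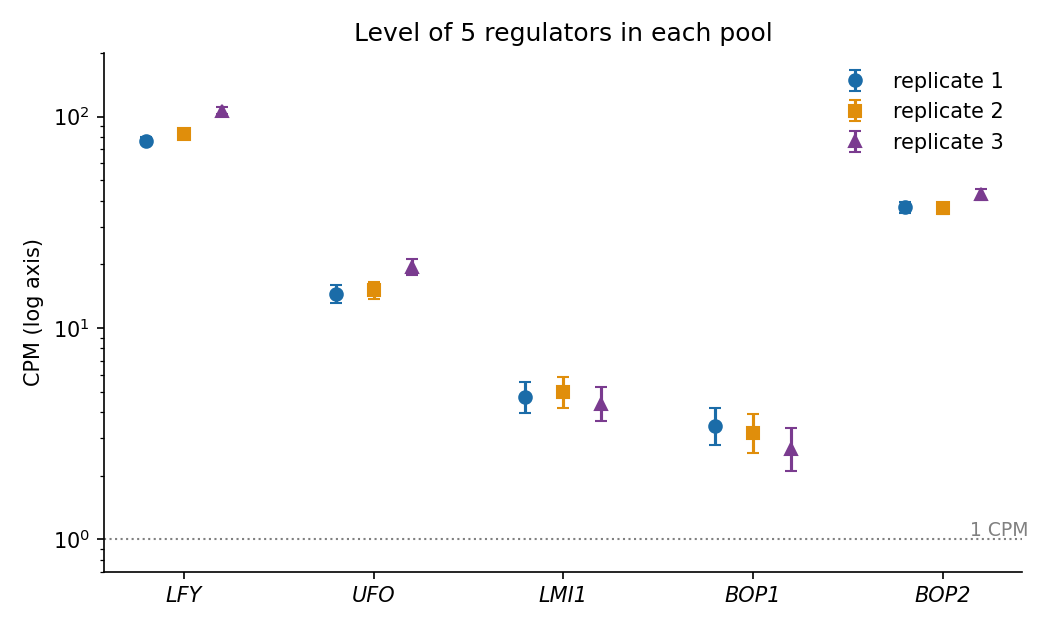
Level of the 5 regulators in each library, in CPM on a log axis; points are single libraries and bars are exact 95% Poisson counting intervals. LFY lies between 77.0 and 107 CPM and BOP1 between 2.68 and 3.44 CPM, and replicate 3 stands above the other libraries for LFY, UFO and BOP2.

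To set genes against each other, CPM was divided by the length of the exon union and rescaled to the same sum in each library, which is called TPM here. On that scale LFY stood at 106 ± 19.6 TPM, BOP2 at 29.4 ± 2.76, UFO at 17.7 ± 3.12, LMI1 at 5.92 ± 0.363 and BOP1 at 2.54 ± 0.296 TPM (SD, n = 3 each). The order was the same in every library. LFY ranked 1769 of the 18315 kept nuclear genes that had an exon length, above 90.3% of them, and BOP2 lay above 58.4%, close to the middle. UFO lay above 41.5%, LMI1 above 18.5% and BOP1 above 9.62% of these genes.

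**Figure D2:**
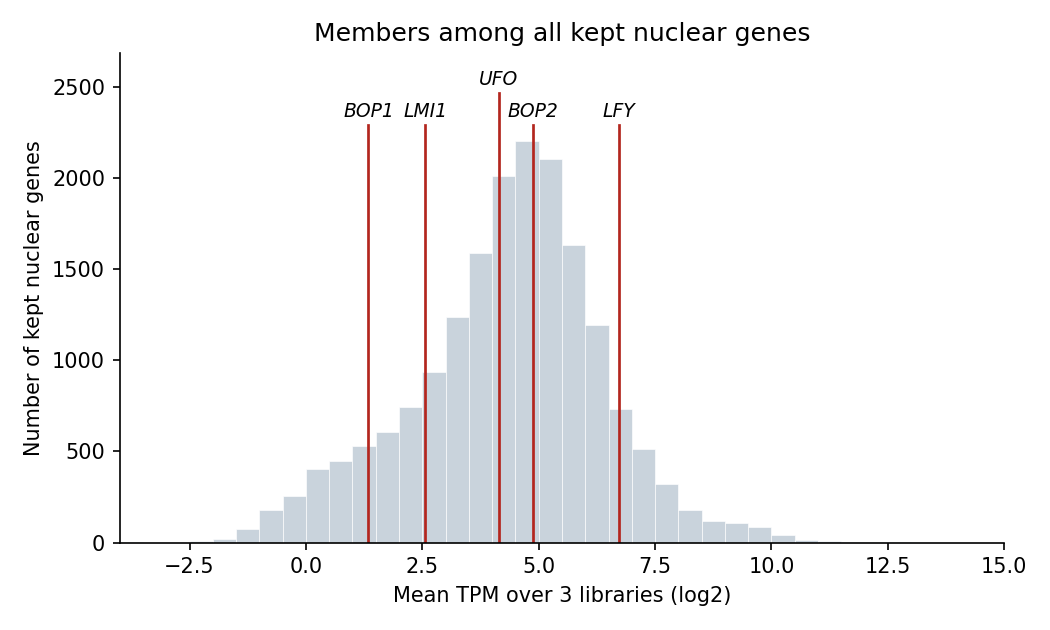
Distribution of the mean TPM (log2) of the kept nuclear genes, as number of genes in bins of 0.5 log2 units, with red lines at the 5 regulators. LFY, at 106 TPM, lies in the upper tail, BOP2 and UFO lie near the peak and LMI1 and BOP1 lie in the lower shoulder.

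Each step in this order was tested with limma on the log2 length-normalised level of every kept gene minus that of one regulator in the same library, with Benjamini-Hochberg adjustment over all 18314 other genes. LFY exceeded BOP2 by 1.71, 1.82 and 1.97 log2 units in replicates 1, 2 and 3, a mean of 1.83 ± 0.13 or 3.57-fold. BOP2 exceeded UFO by a narrower margin: UFO minus BOP2 was -0.84, -0.77 and -0.61, a mean of -0.74 ± 0.12 log2 units (1.67-fold, limma, adjusted p = 0.000744). This step was lost without replicate 1 (limma, adjusted p = 0.0737) or without replicate 2 (limma, adjusted p = 0.108), although its direction held in 3 of 3 libraries. With coding length in place of exon length it was -1.11, and with no length correction -1.26. The other 9 pairs kept their call with any library left out, and without replicate 1 LFY minus BOP2 was 1.90, UFO minus LMI1 was 1.65 and LMI1 minus BOP1 was 1.3.

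UFO exceeded LMI1 by 1.39, 1.37 and 1.93 log2 units (mean 1.56 ± 0.32, 2.95-fold), which fell to 0.88 when coding length replaced exon length. LMI1 exceeded BOP1 by 1.08, 1.27 and 1.33 log2 units (mean 1.23 ± 0.13, 2.34-fold), and by 0.60 with no length correction, under which LFY minus BOP2 was 1.18. The extremes, LFY and BOP1, were 5.37 ± 0.43 log2 units or 41.2-fold apart. All 10 pairs passed with either member as the reference, with the sign of the difference shared by 3 of 3 libraries, and the largest adjusted p of the 10 was that of UFO and BOP2 (limma, 0.000744). These p-values borrow the spread of all genes and hold no error for gene models or sequence bias, and an exact sign-flip test on 3 libraries gave its smallest possible p of 0.25 for each pair.

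LFY and UFO, the partners in AP3 activation, kept a similar ratio across the pools. LFY minus UFO was 2.55, 2.59 and 2.59 log2 units in replicates 1, 2 and 3, a mean of 2.58 ± 0.02 (SD, n = 3) or 5.97-fold. Counting error alone gives an SD of 0.07 at these counts, so that the evenness of the 3 values is finer than the depth can resolve. Both were high in replicate 3, at 0.28 (LFY) and 0.27 (UFO) log2 CPM above their own means. Of the kept genes, 3.38% had a step from replicates 1 and 2 to replicate 3 at least as large as that of LFY.

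BOP2 moved less, at 0.14 log2 CPM above its mean in replicate 3, whereas LMI1 and BOP1 were 0.10 and 0.20 below theirs. The spread of LFY, UFO and BOP2 exceeded counting error when edgeR's goodness-of-fit test allowed Poisson variation alone (adjusted p = 1.61e-39, 7.48e-07 and 1.86e-05). So did that of 11179 of the 18334 kept genes. The spread of LMI1 and BOP1 did not pass (adjusted p = 0.805 and 0.404), at counts near 100 that limit what can be seen. Against the spread of genes of like level, 0 of the 5 passed (edgeR, adjusted p rounding to 1 for each), where 2.52% of 18334 kept genes did. At an unadjusted p under 0.05 there were 0 of the 5, against 1107 of the 18334 kept genes. When a 1.5-fold rise of 1 library was simulated for 100 genes, this test called 1 of them, and the highest library of LFY was 1.39 times its lowest, so that a shift of this size is below what the test can call.

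By distance between log2 CPM centred on the gene's mean over the 3 libraries, the genes nearest to LFY were GLDP2, a glycine decarboxylase subunit (distance 0.0181), AT1G19740 (0.0188) and AOAT2, an alanine-2-oxoglutarate aminotransferase (0.0196). The genes nearest to UFO were AT4G16550 (0.0136), AT1G19740 (0.0158) and AT5G02950 (0.0251), and the distance between LFY and UFO was 0.0317. Within a distance of 0.1 lay 57 of 13427 genes for LFY and 71 for UFO, but 899 for BOP2, 499 for BOP1 and 2524 for LMI1. For the last 3 regulators the nearest genes were AT4G13370, AT1G49980 and AT4G33480 for BOP2, AT4G25150, AT1G10657 and AT5G22020 for BOP1, and PFD3, DUF6 and AT4G23540 for LMI1. With 3 libraries a profile has little content, and likeness is given as a description.

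Genes known to act on LFY stood on either side of it. All 10 of them reached 1 CPM in every library, as 63.2% of protein-coding genes did. Their median was 74.1 TPM, against 23.0 TPM over all kept genes. Above LFY in length-normalised level were 3, where 6.82% of kept genes were called above it and 86.2% below. SPL3, a target of miR156 that promotes flowering, stood at 566 ± 74.0 TPM (592, 624 and 483), 5.38-fold above LFY. ANT, a factor of organ growth, was at 182 ± 21.0 TPM and ARF5, the auxin response factor that activates LFY in young primordia, at 173 ± 22.6 TPM. Their calls against LFY (limma, adjusted p = 0.000133 and 0.000563) were lost without replicate 2 (limma, adjusted p = 0.126 and 0.121), while both lay above LFY in 3 of 3 libraries. ARF5, SPL3, AIL6 and SPL9 each overlap a gene on the opposite strand, as do BRM, ASK2, HB22, NPR1, TGA4, TGA6 and PAN below.

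Below LFY were 5 of these genes. AIL6, a relative of ANT, was at 30.1 ± 3.55 TPM. TFL1, which keeps the shoot tip from becoming a flower, was lowest at 12.7 ± 2.77 TPM, with 9.72, 13.0 and 15.2 TPM in replicates 1, 2 and 3. FUL (119 ± 5.67 TPM) and SPL9 (88.0 ± 21.3 TPM) were not called apart from LFY (limma, adjusted p = 0.380 and 0.187), FUL being called above it without replicate 3 (limma, adjusted p = 0.0111). With coding length, 3 of the 10 calls changed: FUL was called above LFY, and SOC1 and FD, counted among the 5 below, were not called apart from it (limma, adjusted p = 0.10 and 0.663).

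Genes that LFY is known to regulate also lay around it, and most shared its high replicate 3. Of 11, all reached 1 CPM in each library, as 63.2% of protein-coding genes did, and 3 were called above LFY (6.82% of kept genes), 7 below (86.2%) and 1 neither way. AP1, the MADS-box gene of floral meristem identity, stood at 232, 244 and 268 TPM, above LFY in every library by a mean of 1.24 ± 0.16 log2 units (2.36-fold, limma, adjusted p = 2.79e-09). The petal and stamen genes PI (145 ± 18.9 TPM) and AP3 (143 ± 10.3 TPM) were above LFY in 3 of 3 libraries by 0.46 ± 0.26 and 0.44 ± 0.16 log2 units (limma, adjusted p = 0.0249 and 0.0320). These calls of PI and AP3 did not hold without replicate 1 or without replicate 2, where the largest adjusted p was 0.328 (limma) for each, or with no length correction, while with coding length the differences were 1.41 and 1.13 log2 units. SEP3, a MADS-box cofactor, was at 101 ± 19.7 TPM and not called apart from LFY (limma, adjusted p = 0.721), but called above it by 0.56 log2 units with coding length (limma, adjusted p = 0.00866).

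CAL, the close relative of AP1 that LMI1 also acts on, was at 38.6, 41.8 and 44.6 TPM, 2.51-fold below LFY. The stamen and carpel gene AG, at 33.0 ± 5.29 TPM, was 3.19-fold below, but with coding length it was not called apart from LFY (-0.34 log2 units, limma, adjusted p = 0.126). RAX1, a MYB gene of axillary meristem formation, was lowest at 3.08, 3.24 and 4.13 TPM, 30.1-fold below LFY. The calls of PID and ARR7 below LFY failed in every fit with a library left out, and that of MYB17 without replicate 1 and without replicate 2. Each of these calls also failed with coding length, under which 4 targets were above LFY, 3 below and 4 neither way. When limma was fitted without a trend, 4 of the 11 target calls changed, those of AP3, PI, MYB17 and PID being lost. That left 1 target above LFY, 5 below and 5 neither way.

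**Figure D3:**
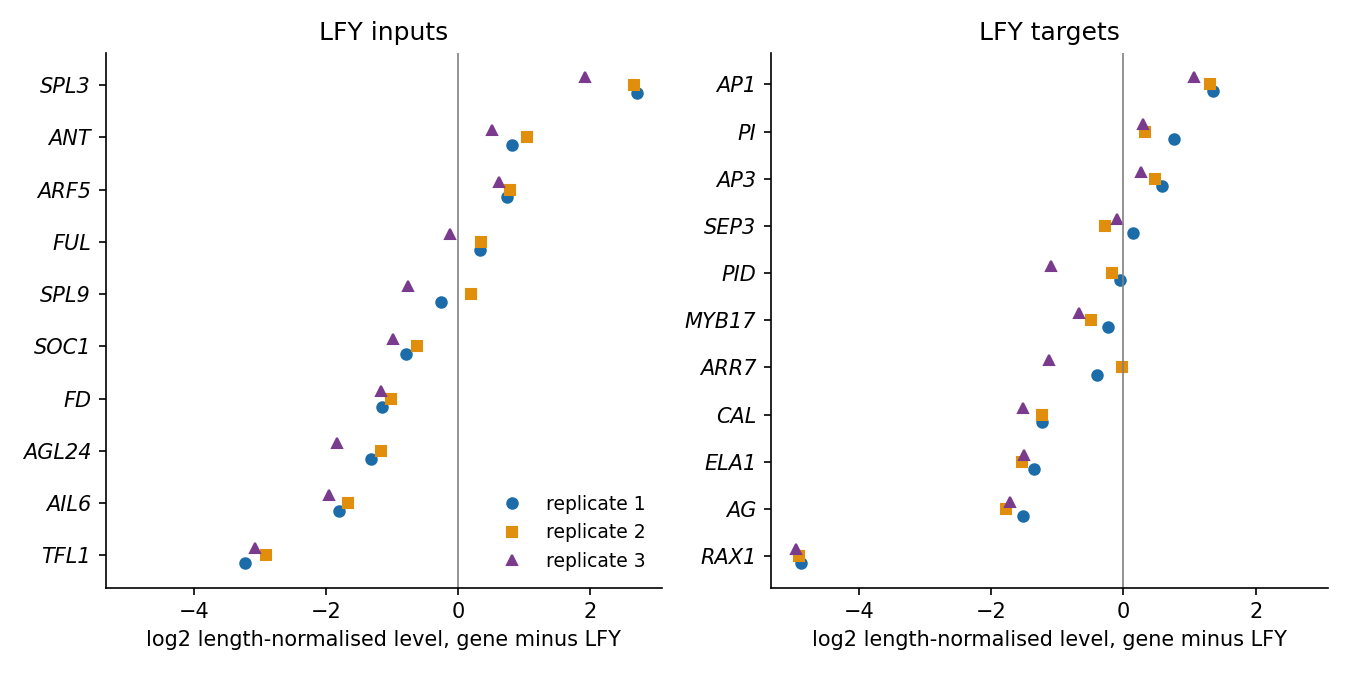
Difference in log2 length-normalised level between each listed gene and LFY within the same library; points are the 3 libraries and the line at 0 is LFY. SPL3 lies highest among the inputs and AP1 among the targets, and TFL1 and RAX1 lie lowest.

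Of the 11 targets 9 had their highest CPM in replicate 3, the high library of LFY, where 22.9% of 18334 kept genes had theirs. The exceptions were PID, a kinase of auxin transport with 113, 111 and 75.6 CPM, and ARR7, a cytokinin response regulator with 39.8, 55.7 and 33.5 CPM. The median step from replicates 1 and 2 to replicate 3 was 0.16 log2 units for the targets and -0.05 for all kept genes. Of the inputs 5 of 10 were highest in replicate 3. With TMM-scaled totals or DESeq2 size factors, 31.7% or 32.8% of all kept genes were highest in replicate 3, and the count of targets was 9 under both. None of the 11 targets and none of the 10 inputs varied more than genes of like level (edgeR goodness of fit, lowest adjusted p = 0.60, for ARR7), where 2.52% of 18334 kept genes did. An unadjusted p under 0.05 was found for 1 of the targets and 0 of the inputs, against 1107 of the 18334 kept genes. The young flower markers AP1, AP3, PI and AG, all of them also in the target list, summed to 515, 494 and 569 CPM, and the 5 shoot meristem markers to 249, 341 and 286 CPM. Their part in the levels of LFY and UFO was not tested.

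**Figure D4:**
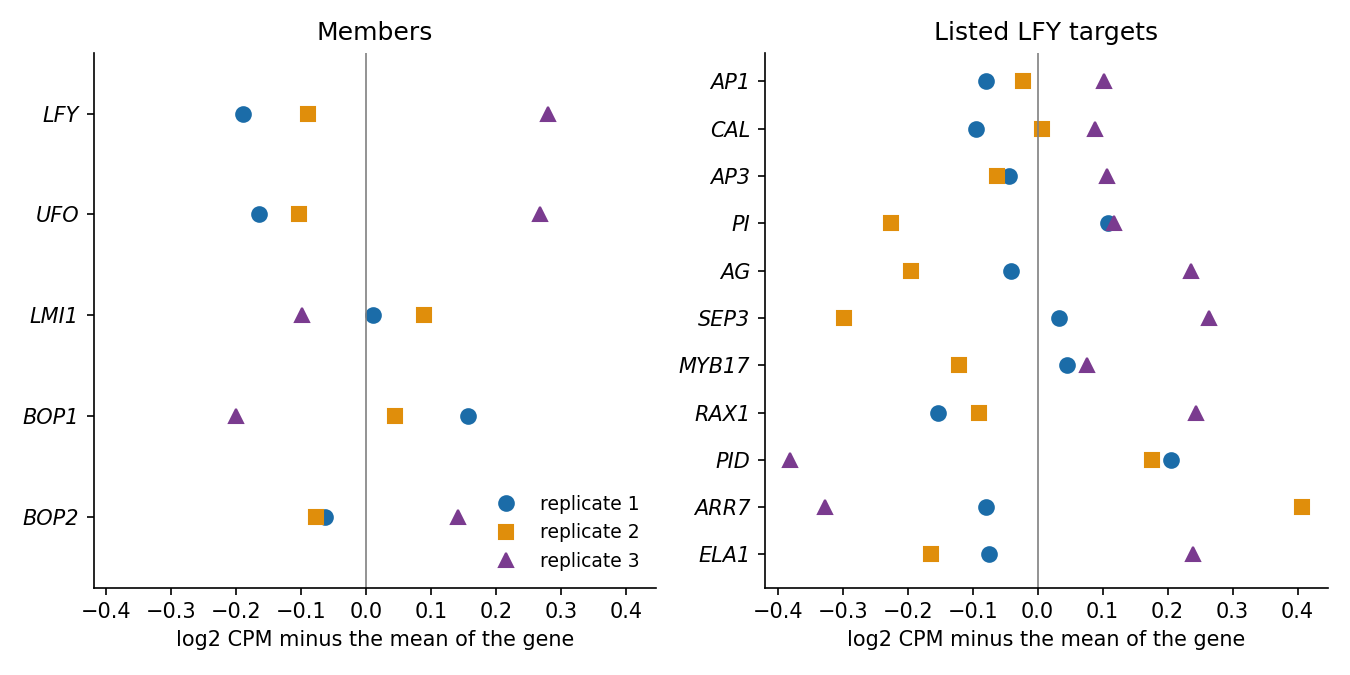
log2 CPM of each gene minus its mean over the 3 libraries, for the 5 regulators and for the 11 listed LFY targets; each symbol is 1 library. Replicate 3 lies 0.28 above the mean for LFY and 0.27 for UFO, and is the highest library of 9 of the 11 targets.

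The chromatin remodellers SYD and BRM, which LFY recruits to open its target genes, were at 40.1 ± 1.41 and 47.7 ± 1.63 TPM. They were even across the libraries and differed from LFY by -1.38 ± 0.21 and -1.13 ± 0.22 log2 units per length. Both genes are long, and their raw counts exceeded those of LFY, so that their call turns to above LFY when no length correction is made.

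Genes of the SCF ligase that UFO joins were much more abundant than UFO. All 5 were called above it, as were 48.3% of kept genes, and each of these calls held with any library left out. The adaptor ASK1, which binds the F-box, stood at 385, 391 and 395 TPM, 22.3-fold above UFO, and ASK2 at 186 ± 5.44 TPM. The scaffold CUL1 was at 168 ± 9.74 TPM, the RING subunit RBX1 at 158 ± 9.44 TPM, and the exchange factor CAND1 was nearest to UFO at 49.8 ± 2.19 TPM, 2.84-fold above. None of the 5 had a highest-to-lowest ratio above that of UFO, 1.35.

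LMI1 belongs to the class I homeodomain-leucine zipper genes, many of which act in responses to water deficit or light. Of the other 16, 11 reached 1 CPM in every library (63.2% of all protein-coding genes), and 13 passed the filter and could be compared. Among these 13, 9 were called above LMI1, 2 below and 2 neither way, where 77.9% of kept genes were above LMI1 and 15.5% below. HB6, a negative regulator of abscisic acid responses, was highest at 232 ± 9.14 TPM, 39.1-fold above LMI1, followed by HB5 at 115 ± 24.6 and HB16 at 75.8 ± 4.40 TPM. The lowest of the 13 were HB54 at 1.34 ± 0.498 and HB20 at 1.46 ± 0.479 TPM, both called below LMI1 with any library left out. HB20 overlaps AT3G01210 on the same strand, which had 290, 336 and 275 counts against 45, 41 and 21 for HB20, so its count is uncertain.

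The genes around the level of LMI1 were HB40, HB53, HB21 and HB7. HB21 was at 11.2 ± 2.29 TPM, 1.87-fold above LMI1 (limma, adjusted p = 0.00136). HB40 had 7.39, 4.82 and 10.5 TPM and HB53 had 5.53, 2.83 and 7.17 TPM, neither called apart from LMI1 (limma, adjusted p = 0.287 and 0.353), although HB40 was called above it without replicate 2 (limma, adjusted p = 0.00682). HB7, at 7.67 ± 1.09 TPM, was called above LMI1 (limma, adjusted p = 0.0349), a call lost without replicate 1 and without replicate 3. HB22, the closest match to the LMI1 transcript elsewhere in the genome (74.0% identical over 173 bases), had 15, 9 and 24 counts. HB52 had 1 count in all, and HB1 was listed at 0, its locus overlapping genes on the opposite strand.

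The 300 bases upstream of the annotated start of LMI1 (chr5:1004482-1004781, TAIR10.1, plus strand, from the RefSeq genome) are shown because LMI1 was the only regulator of the 5 whose window held any of the 3 motifs searched on both strands: CCANTG, the core bound by LFY, TGTCTC, the element bound by auxin response factors, and TGACG, the core bound by TGA factors. Capitals mark TGTCTC, at position -99 from the gene start, and its reverse complement, at position -216.
LMI1 upstream: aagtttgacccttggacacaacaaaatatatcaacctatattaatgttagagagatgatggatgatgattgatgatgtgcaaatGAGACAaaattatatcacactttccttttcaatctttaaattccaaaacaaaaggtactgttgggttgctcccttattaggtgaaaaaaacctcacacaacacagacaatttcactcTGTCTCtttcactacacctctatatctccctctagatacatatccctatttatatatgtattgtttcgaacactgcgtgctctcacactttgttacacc
Among 27443 such windows of nuclear protein-coding genes, 13.0% held TGTCTC, 24.8% CCANTG and 21.3% TGACG. The share of windows holding any of the 3 was not counted. The motifs do not overlap one another, and the absence of these letters from the windows of the other regulators covers these 300 bases only.

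LMI1 lies on the same chromosome as TFL1, 17868 bases away with 5 annotated genes between them, on the opposite strand. The nearest gene on its other side, TRFL10, had 434, 362 and 381 counts, and AT5G03795, 758 bases beyond LMI1, had 32, 18 and 14. The neighbours of LFY, GUT1 and AT5G61865, were at 66.4 to 70.1 CPM and 12.8 to 13.7 CPM, so that the highest library of GUT1, replicate 3, differed less from its others than that of LFY did. UFO ends 43 bases from AT1G30960 on the opposite strand, which had 347, 423 and 339 counts. BOP1 ends 3 bases from SDP1-LIKE, also on the opposite strand, with 11, 30 and 18 counts.

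BOP2 supplied most of the BOP transcripts in every pool. BOP1 minus BOP2 was -3.31, -3.41 and -3.87 log2 units per length in replicates 1, 2 and 3, a mean of -3.53 ± 0.30 (SD, n = 3), with BOP2 11.6-fold higher. Of the counts on both genes, BOP2 held 91.5% (exact 95% binomial interval 89.8 to 93.1%), 92.0% (90.3 to 93.5%) and 94.1% (92.6 to 95.4%). The mean share was 92.6 ± 1.37%, or 92.0 ± 1.46% when counts were divided by exon length, and the 3 intervals overlapped.

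The split between these paralogues was checked on their sequences. Their coding sequences were identical at 1136 of 1392 aligned bases (81.6%), and the longest stretch without a difference was 32 bases. It is shown in capitals below, in lines of coding sequence from BOP1 (positions 515 to 586) and BOP2 (positions 530 to 601) of the TAIR10.1 RefSeq models.
BOP1: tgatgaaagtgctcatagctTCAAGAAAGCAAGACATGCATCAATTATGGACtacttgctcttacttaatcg
BOP2: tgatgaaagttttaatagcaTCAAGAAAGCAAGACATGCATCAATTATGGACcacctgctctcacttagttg
Of 1736 windows of 100 bases, the read length, along the BOP1 transcript, 0 matched the BOP2 transcript without a gap at up to 5 mismatches. BOP2 also spans AT2G41375 on the opposite strand (chromosome 2, 17238380 to 17238986), which is not among the counted loci and so has no count of its own. The strand setting of the counting is not given in the sources used here, so that reads of that gene within the count of BOP2 cannot be told apart.

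The other NPR genes, receptors and coregulators of salicylic acid responses, stood near BOP2 and far above BOP1. NPR1 was at 27.9 ± 3.43 TPM, NPR4 at 24.0 ± 2.17 and NPR3 at 33.9, 22.0 and 15.2 TPM in replicates 1, 2 and 3. All 3 were called above BOP1, as were 87.8% of kept genes (7.34% below), by 10.9-fold, 9.44-fold and 8.86-fold. Against BOP2, where 35.0% of kept genes were above and 51.8% below, NPR1 was not called apart (limma, adjusted p = 0.587). NPR3, below BOP2 in 2 of 3 libraries, and NPR4, below it in 3 of 3, were called below BOP2 (limma, adjusted p = 0.0118 and 0.0453), NPR4 in no fit with a library left out and NPR3 only without replicate 1, and neither with no length correction. NPR3 was the sole gene in the lists around the 5 regulators that varied more than genes of like level (edgeR goodness of fit, adjusted p = 0.00563). The share over all kept genes was 2.52%.

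Among the TGA factors through which BOP proteins reach DNA, PAN, which sets floral organ number, was highest at 52.0, 52.6 and 60.8 TPM. It lay above BOP2 by 0.91 ± 0.01 log2 units and 21.7-fold above BOP1. Counting error of BOP2 alone is 3.01% of its count, so that this small SD is finer than the depth can resolve. TGA3 followed at 34.5 ± 3.61 TPM and was not called apart from BOP2 (limma, adjusted p = 0.0890), but above it without replicate 3 (limma, adjusted p = 0.00699). The next was TGA2 at 17.2 ± 0.562 TPM. All 10 factors reached 1 CPM in each library, as 63.2% of protein-coding genes did. Of them 7 were called above BOP1 and 1 below it, against 87.8% and 7.34% of kept genes, and 1 above BOP2 and 8 below it, against 35.0% and 51.8%. With coding length 9 were above BOP1, TGA1 was not called apart from it, and TGA2 was not called apart from BOP2 (limma, adjusted p = 0.0582 and 0.580). TGA3 was then called above BOP2 (limma, adjusted p = 0.00117), which made 2 factors above BOP2, 7 below and 1 neither way. TGA4 gained a call above BOP1 without replicate 2 (limma, adjusted p = 0.0324) and TGA10 lost its own without replicate 3 (limma, adjusted p = 0.114). The lowest were TGA1, at 1.86, 1.87 and 1.69 CPM, and TGA7 at 2.93 ± 0.224 TPM. TGA10, a factor of anther development, had 6.36, 3.32 and 10.8 CPM and TGA9, its partner, 20.5, 12.4 and 25.8 CPM, lowest in replicate 2 and highest in replicate 3 (edgeR goodness of fit, adjusted p = 0.0670 and 0.106).

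BOP proteins also serve as adaptors of CUL3 ubiquitin ligases, for which LFY is a known substrate. CUL3A was at 54.9, 47.9 and 55.6 TPM and CUL3B at 15.2, 15.6 and 14.3 TPM. BOP2 thus lay between them, 1.80-fold below CUL3A and 1.95-fold above CUL3B. Of all kept genes, 35.0% were called above BOP2 and 51.8% below it. CUL3A and CUL3B were both called above BOP1, as were 87.8% of kept genes (7.34% below).

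**Figure D5:**
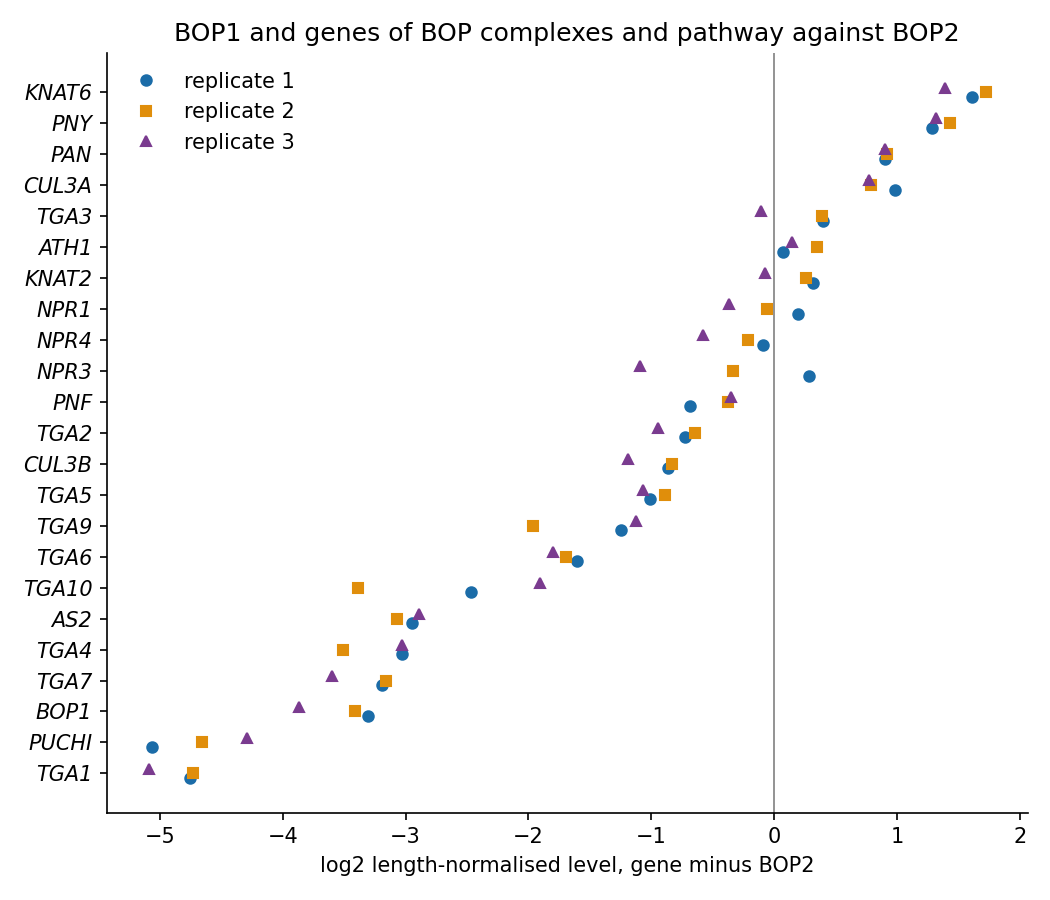
Difference in log2 length-normalised level between BOP1 or each listed gene of the BOP complexes and pathway and BOP2 (line at 0), with 1 symbol for each library. BOP1 lies -3.53 log2 units from BOP2 on average, near TGA4 and TGA7, and KNAT6, PNY, PAN, CUL3A and, by the least, ATH1 lie above BOP2 in every library.

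Genes of the BOP pathway in stem and organ boundary patterning covered the same range. The homeobox genes that BOP1 and BOP2 activate were at 87.5 ± 3.65 TPM for KNAT6, 33.5 ± 3.72 for ATH1 and 32.9 ± 1.87 for KNAT2. The BELL gene PNY, which opposes BOP activity in the stem, was at 67.9, 75.0 and 81.2 TPM, 2.54-fold above BOP2, and its relative PNF at 21.4 ± 4.12 TPM. PUCHI, an AP2-type factor that acts with BOP1 and BOP2 in floral fate, was lowest with 22, 29 and 41 counts and 1.18 ± 0.424 TPM. AS2, a leaf polarity gene that BOP proteins activate, was at 3.76 ± 0.558 TPM. The 6 genes other than PUCHI reached 1 CPM in every library, as 63.2% of protein-coding genes did. Of the 7, 2 were called above BOP2 (35.0% of kept genes), 3 below (51.8%) and 2 neither way, and 6 were called above BOP1 (87.8%). With coding length ATH1 and KNAT2 were called above BOP2 too (limma, adjusted p = 0.000394 and 7.08e-05). Without replicate 3 AS2 was not called apart from BOP1 (limma, adjusted p = 0.138) and KNAT2 was called above BOP2 (limma, adjusted p = 0.0235), and without replicate 1 PNF was not called apart from BOP2 (limma, adjusted p = 0.133).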

How the data were processed

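RNA was extracted with a PicoPure kit and sequenced as strand-specific TruSeq libraries with paired reads of 100 bases on a HiSeq2000, per the labels' protocols. The authors deposited whole-number counts for each gene, with no normalisation. The submitters' processing notes list HTSeq 0.6.1, TopHat2 2.1.0, Bowtie2 2.2.5 and FastQC, and TAIR10 as the build. The role of each, the annotation, the strand setting and the rule for multiply mapping reads, which can change counts of overlapping or duplicated genes, were not given in the sources used here.

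Loci were matched to the RefSeq annotation of TAIR10.1 (31912 of 32678), which gave names, exon unions and all coordinates. The 279 organelle loci were left out. CPM used nuclear totals, and TPM divided CPM by exon length. A count of 0 allows up to 0.103, 0.104 and 0.110 CPM (3 counts) in replicates 1, 2 and 3. edgeR 4.0.16 (filterByExpr, TMM, trended dispersion, goodness of fit with 2 degrees of freedom) tested spread between libraries, and limma 3.58.1 (intercept only, trend, pseudocount of 0.5 counts) tested levels against each regulator, two-sided with Benjamini-Hochberg adjustment at 0.05 over all genes of a fit. DESeq2 1.42.0 gave alternative size factors. Copies were sought with blastn 2.17.0. Both tests were checked on simulated counts: of 100 genes planted 0.5 log2 units above LFY, 99 were called, and of 100 planted at its level, 1. Each size was simulated in 1 run, where all planted genes shared the same simulated LFY, so these are not independent checks. LFY was drawn with the trended coefficient of variation, 0.128, below its own estimate of 0.154.

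Of 91 list entries 90 were used, since the reference did not give NPR2 its name. The regulators and lists were chosen with earlier results of these data known. Genes named are the 5 regulators, up to 3 highest and 2 lowest of each list and any under 1 CPM throughout, the 3 nearest in profile (mean of at least 10 CPM) and the neighbours; other listed genes are named where a count or a comparison turns on them, after their values were seen.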

Additional observations from a re-analysis of the deposited data

How the results depend on the processing

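Of 238 values recomputed under other settings 225 kept their side of the threshold or stayed within their limits, and 0 reversed. All 90 alternative level differences between regulators kept their direction, and 88 their call. UFO minus BOP2 ranged from -0.81 to -0.69 log2 units with a library left out, and its call was lost without replicate 1 and without replicate 2. With the filter on low counts removed, the number of genes below UFO, LMI1 and BOP1 rose to 10473, 7289 and 5728, from 5893, 2831 and 1344, because more low genes were compared. With a library left out, 810 to 1607 genes were above LFY (1249 with all 3, 1607 without replicate 3) and 234 to 289 varied (462 with all 3); the cause was not tested. With Poisson variation alone 11179 of 18334 kept genes varied, among them LFY (adjusted p = 1.61e-39), UFO (7.48e-07) and BOP2 (1.86e-05) by edgeR. The other member of a pair as reference was an alternative chosen after seeing the data. No paired analysis was possible because all libraries belong to 1 group. Depth limits LMI1 and BOP1, whose counting error alone is 8.66% and 10.6% of the count.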
